A study of Mus musculus with 6 samples.

Results

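A set of 10 genes of cartilage and bone formation was followed by symbol through the count table of the embryonic midface: Sox9, Sox5, Sox6, Acan and Cnmd on the cartilage side, and Runx2, Sp7, Alpl, Ibsp and Spp1 on the bone side. Each of the 10 symbols matched 1 row of the 55401 in the table, and all 10 were abundant enough to be tested. The tissue was the microdissected frontonasal and maxillary prominences, which form the nose, midface and upper jaw, taken from mouse embryos at E10.5, mid-gestation, and read as bulk RNA. The 3 mutants were Wnt1CRE positive and null/flox for both Tfap2a and Tfap2b (Tfap2Δ/NCKO). The CRE is active in the neural crest before it migrates, so these embryos were designed to lack both AP-2 factors in the crest lineage and kept a single functional copy of each gene in other cells. The 3 controls were CRE-negative littermates, which by the study's scheme could carry floxed or null alleles of Tfap2a and Tfap2b in any mixture, and all mice were on a mixed background. As every mutant and no control carried the transgene, its own effect and that of TFAP2 loss cannot be told apart.

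The bones and cartilages of the midface come from neural crest mesenchyme that first condenses and then differentiates. SOX9, an HMG-box transcription factor, commits condensing cells to cartilage, and SOX5 and SOX6, close relatives of each other that lack a transactivation domain, act with it on cartilage matrix genes. Those genes include Acan, which encodes the large proteoglycan aggrecan, and Cnmd, which encodes chondromodulin, a membrane glycoprotein of avascular cartilage that inhibits vessel growth. RUNX2 is the runt-domain factor required for osteoblasts, and SP7 (osterix), a zinc finger factor, acts downstream of it. Alpl encodes tissue-nonspecific alkaline phosphatase, which frees phosphate for mineral, while Ibsp (bone sialoprotein) and Spp1 (osteopontin) encode acidic phosphoproteins of bone matrix. E10.5 precedes overt cartilage and bone in the mouse face. The comparison asks whether regulators and products of the skeleton already differ between genotypes at this stage.

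The libraries were read deeply and evenly, with total counts of 68119668 to 77555252, at which 1 count stood for 0.0128 to 0.0148 CPM (the count scaled to library size). Tfap2a spanned 30.4 to 35.1 CPM over the controls, against 28.6 to 31.5 CPM over the mutants, and Tfap2b 88.7 to 97.2 against 75.6 to 84.1 CPM. Neither gene passed the test between genotypes (edgeR, adjusted p 0.684 and 0.26), and Tfap2a overlapped, so these values do not verify the genotype labels. These counts sum all exons and all cells of the tissue, and so they do not isolate the deletion in crest. The crest mesenchyme markers that define the tissue were present in every library, with Prrx1 at 214 to 232 CPM and Twist1 at 81.9 to 111 CPM. Embryo sex was uneven. The Y-linked Ddx3y stood at 40.5 to 45.8 CPM in control 2 and all mutants and at 0.0265 and 0.0534 CPM in controls 3 and 1. Comparisons are therefore also given with control 2 as the sole control, which leaves 4 libraries that all express Y-linked genes, and with Y-linked expression as a covariate. As controls 1 and 3 alone lack that expression, the genotype difference rests on control 2 with the covariate as well. The 2 settings are thus nearly 1 comparison, not 2 independent checks. P-values measure the spread between these embryos only. In bulk tissue, fewer cells of a type and less RNA per cell cannot be told apart.

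None of the 10 genes passed the test between genotypes. Sox9 and Sox5 stood lower in every mutant than in every control, at 0.868 and 0.838 times the control mean, and Sox6, their partner, stood higher in every mutant, at 1.19 times. Acan, Sp7 and Spp1 also stood higher in every mutant, at 2.74, 1.38 and 1.81 times, and Cnmd, Runx2, Alpl and Ibsp overlapped between the groups. In edgeR's quasi-likelihood test, with Benjamini-Hochberg adjustment over 19612 genes and a gene called when its adjusted p was under 0.05 and its log2 difference over 0.32, 0 of the 10 were called, against 64 of all genes tested (0.326%). Adjusted p ran from 0.166 for Sox5 to 0.907 for Cnmd. At an unadjusted p under 0.05 there were 6 of the 10, 4 higher and 2 lower, where 7.95% of all tested genes reached that level (4.3% higher and 3.65% lower). Control and mutant values did not overlap for the same 6, where 13.4% of all genes did not overlap (7.15% higher and 6.24% lower). By DESeq2's Wald test 0 of the 10 were called as well (1.44% of all genes). It gave Sox5 and Sox6 adjusted p of 0.0124 and 0.0430, but both differences were below the fold limit (DESeq2 adjusted p under 0.05 at any fold: 1.82% of all genes, 0.78% higher and 1.04% lower), and 4 of the 10 had an unadjusted p under 0.05 (7.38% of all genes). limma-voom called 0 and had 6 with an unadjusted p under 0.05 (8.05% of all genes). With the Y-linked covariate 2 of the 10 had an unadjusted p under 0.05 in edgeR's test, Sox6 and Acan, where 6.54% of all genes did. The median log2 fold change was 0.27 over the 10 genes and 0.00 over all tested genes, and it was 0.12 over the 10 with the covariate. Under the stricter count filter, which drops Acan, Cnmd and Spp1, 3 of the other 7 genes stood higher and the median was -0.11.

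**Figure D1:**
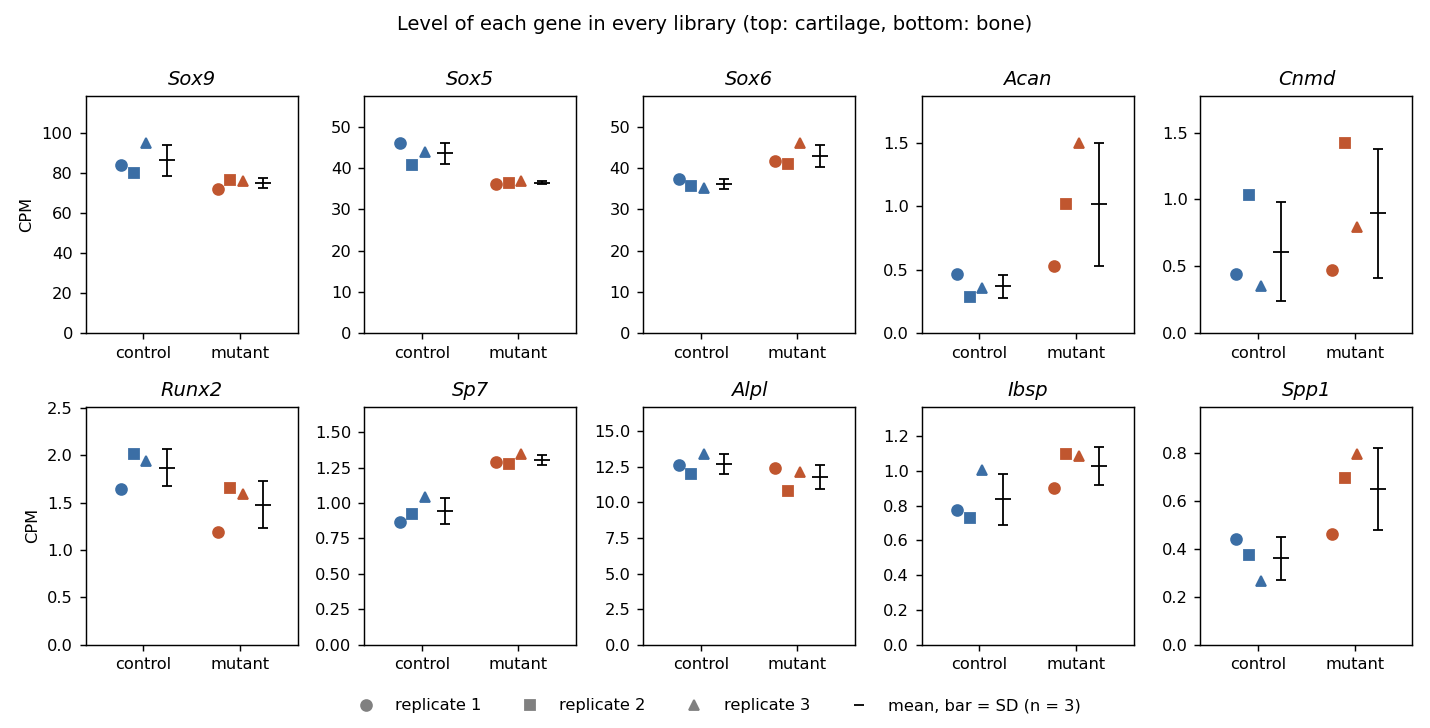
Level of each of the 10 genes in CPM (y axis from 0, a separate scale in each panel) in the 3 control and 3 mutant libraries, with a marker for each replicate and the mean ± SD beside them. Sox9 and Sox5 lie lower in all 3 mutants and Sox6, Acan, Sp7 and Spp1 higher, while Cnmd ranges about 3-fold within each genotype.

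Levels between genes were compared per kilobase of annotated exon. Sox9 was the highest at 19.5 CPM per kb over the 6 libraries, followed by Alpl at 3.04, Sox5 at 2.79 and Sox6 at 2.66 CPM per kb. Sox5 and Sox6 were not in the same order in both genotypes. Sox5 lay at 2.84 to 3.20 in controls and 2.51 to 2.57 in mutants, Alpl at 2.97 to 3.32 and 2.69 to 3.08, and Sox6 at 2.37 to 2.53 and 2.76 to 3.11 CPM per kb, so that Sox6 was below Sox5 in every control and above it in every mutant. The other 6 genes were at a small share of these levels, with means over all libraries of 0.451 for Ibsp, 0.409 for Cnmd, 0.331 for Sp7, 0.306 for Spp1, 0.189 for Runx2 and 0.0929 CPM per kb for Acan. Neighbours among these low genes overlapped within each genotype, except that Acan reached 0.0626 and Runx2 began at 0.186 CPM per kb in controls, and Runx2 reached 0.188 and Spp1 began at 0.279 CPM per kb in mutants. The regulator Sox9 was thus read at 5021 to 7181 counts in a library, and the matrix genes Acan and Spp1 at 21 to 117 and 20 to 62 counts.

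Sox9 (ENSMUSG00000000567.5, chromosome 11, 112782224 to 112787760 in mm10, 4135 bases of exon) measured 84.2, 80.0 and 94.98 CPM over controls 1 to 3, against 72.1, 76.7 and 76.2 CPM over mutants 1 to 3. The groups did not overlap, but the gap between control 2 and mutant 2 was small beside the spread of the controls. The log2 fold change was -0.21 (SE 0.07, 95% interval -0.36 to -0.05, adjusted p 0.402, edgeR). Against the Y-expressing control 2 alone it was -0.11, and with the covariate -0.09. Sox9 is also expressed in early glia of the crest and in the neural tube. Summed over Sox10, Erbb3, Foxd3 and Fabp7, 4 of the crest glia markers, the level was 96.1 to 118 CPM over the controls, against 68.5 to 93.0 CPM over the mutants, with no overlap. Of these markers 3 had lower values at an unadjusted p under 0.05, with Sox10, a factor of crest and glia, at -1.52 on the log2 scale, and 0 were called by edgeR. Fabp7 went the other way, with a log2 fold change of 0.19 and overlap between the groups. The 10 markers of neural tube and neurons summed to 540 to 650 CPM over the controls, against 498 to 585 CPM over the mutants, and overlapped. Of these 10, 5 stood higher and 5 lower in the mutants, so the sum mixes both directions. The part of these cells in the levels of Sox9 and Sox5 was not tested.

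Sox5 and Sox6 stood on opposite sides of their control values, without passing the test. Sox5 (ENSMUSG00000041540.16, chromosome 6, 143828425 to 144781977) measured 46.0, 40.8 and 43.8 CPM over controls 1 to 3, against 36.1, 36.5 and 36.9 CPM over mutants 1 to 3. The mutants were within 1.02 times of each other, and all lay below the lowest control. Its log2 fold change was -0.26 (SE 0.06, interval -0.39 to -0.12), with the smallest adjusted p of the 10 genes, 0.166 in edgeR's test. In the Y-expressing libraries alone it was -0.18 and with the covariate -0.16. Sox6 (ENSMUSG00000051910.13, chromosome 7, 115470872 to 116038796) measured 37.5, 35.7 and 35.1 CPM over controls 1 to 3, against 41.7, 41.0 and 46.1 CPM over mutants 1 to 3. Mutant 3 was the highest and all 3 exceeded the highest control. The log2 fold change was 0.25 (SE 0.06, interval 0.11 to 0.39, adjusted p 0.210 in edgeR's test), and it was 0.25 in the Y-expressing libraries alone and 0.27 with the covariate. Sox6 is also used by red cell precursors, and 8 erythroid genes summed to 1925 to 4337 CPM over the controls, against 2336 to 3411 CPM over the mutants, ranges that overlapped. The part of these cells in the level of Sox6 was not tested.

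The ratio of Sox6 to Sox5 counts within a library does not depend on how libraries are scaled. It was 0.814, 0.874 and 0.801 over controls 1 to 3, against 1.16, 1.12 and 1.247 over mutants 1 to 3. Control and mutant ratios did not overlap, and Sox5 had more counts in each control and Sox6 in each mutant. The mean log2 ratio was -0.27 ± 0.07 in controls and 0.23 ± 0.08 in mutants (SD, n = 3 per group), a difference of 0.50 on the log2 scale or 1.42-fold. The ratio of Sox5 to Sox9 was 0.461 to 0.547 in controls and 0.475 to 0.501 in mutants, and these ranges overlapped. These ratios were chosen with the levels already known and are given as a description. With 3 libraries against 3, an exact two-sided permutation test cannot give a p below 0.1.

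**Figure D2:**
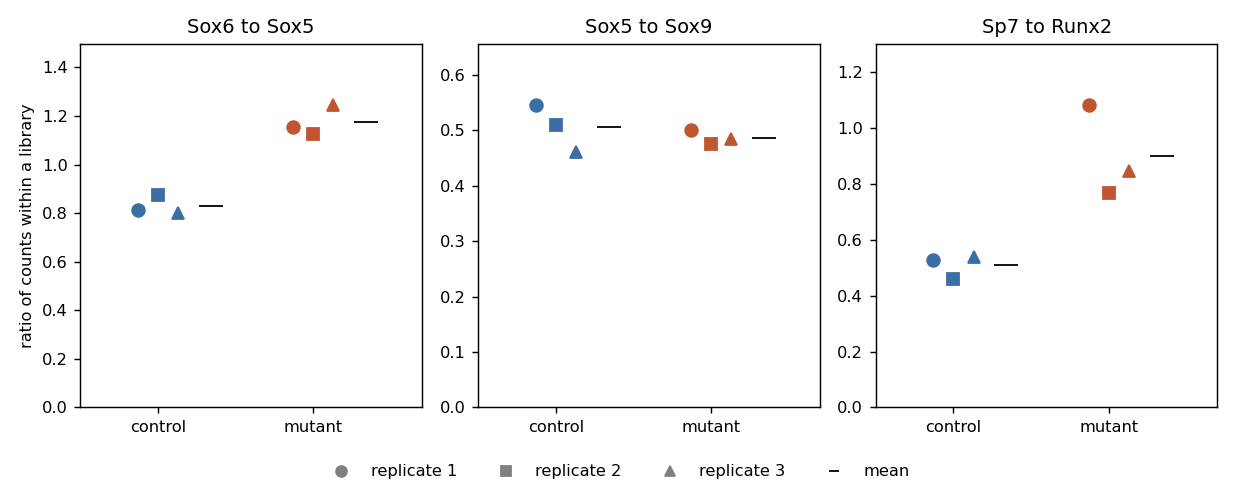
Ratio of counts of a pair of genes within each library (y axis from 0), with a marker for each replicate and a bar at the mean of each genotype. Sox6 to Sox5 lies at 0.801 to 0.874 in controls and 1.12 to 1.247 in mutants, Sox5 to Sox9 overlaps between genotypes, and Sp7 to Runx2 lies at 0.459 to 0.537 in controls and 0.768 to 1.08 in mutants.

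The promoter windows of these genes, the 250 bases before an annotated start (RefSeq, GRCm38.p6), were searched for the letters of 3 motifs on both strands. The motifs were GCCNNNGGC for AP-2 factors, which reads the same on both strands, TGTGGT for RUNX factors, which reads ACCACA on the other strand, and ACAATG for SOX factors, which reads CATTGT there, and no match overlapped another. Windows were found for 8 of the 10 genes, 15 windows in all, because Sox6, Alpl and Spp1 have several starts. The AP-2 letters were in 1 of the 15 windows, where 13.7% of 32851 windows of all genes hold them, the RUNX letters in 4 (14.0% of all) and the SOX letters in 4 (10.7% of all). Sox6 alone supplies 6 of the 15 windows, so the windows are not independent of each other. These are matches of letters, not bound sites. The Sox5 window is shown because Sox5 had the smallest p of the 10 genes. It belongs to a start inside the gene (chr6:143947107-143947356, minus strand) and holds no AP-2 letters, with the SOX match in capitals.
Sox5: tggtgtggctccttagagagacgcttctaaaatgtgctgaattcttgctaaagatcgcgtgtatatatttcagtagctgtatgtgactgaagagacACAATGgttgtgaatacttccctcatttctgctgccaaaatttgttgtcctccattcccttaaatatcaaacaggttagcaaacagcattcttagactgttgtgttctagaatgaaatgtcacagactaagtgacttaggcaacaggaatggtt

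Acan (ENSMUSG00000030607.7, chromosome 7, 79053483 to 79115099) had the largest fold of the 10 genes and the fewest counts per kilobase. Controls 1 to 3 had 35, 21 and 27 counts and mutants 1 to 3 had 37, 69 and 117 counts, or 0.468, 0.289 and 0.357 CPM and 0.531, 1.02 and 1.497 CPM. Mutant 1 was close to control 1, and mutants 2 and 3 stood well apart from the controls. Its log2 fold change was 1.45 (SE 0.39, interval 0.57 to 2.33, adjusted p 0.244, edgeR). It was 1.06 without mutant 3 and 1.76 without mutant 1, and 1.80 in the Y-expressing libraries alone. The spread among mutants was 2.82-fold from lowest to highest.

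Cnmd (ENSMUSG00000022025.13, chromosome 14, 79637690 to 79662170) varied most within a genotype. It measured 0.441, 1.03 and 0.357 CPM over controls 1 to 3, against 0.474, 1.42 and 0.793 CPM over mutants 1 to 3, from 27 to 96 counts. Control 2 lay above mutants 1 and 3, and replicate 2 was the highest of each genotype. The fitted difference was 0.55 on the log2 scale (SE 0.51, interval -0.62 to 1.72, adjusted p 0.907 in edgeR's test). Its sign depended on control 2, with 1.16 when that library was left out (adjusted p 0.533) and -0.22 when it was the only control. Leaving out mutant 2 gave 0.06.

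On the bone side the 2 regulators had fold changes of opposite sign, and neither passed the test. Runx2 (ENSMUSG00000039153.17, chromosome 17, 44495987 to 44814797) measured 1.64, 2.01 and 1.94 CPM over controls 1 to 3, against 1.19, 1.66 and 1.59 CPM over mutants 1 to 3. Mutant 2 was just above control 1, so the groups overlapped. On the log2 scale the difference was -0.34 (SE 0.19, interval -0.76 to 0.09, adjusted p 0.791 in edgeR's test), -0.46 in the Y-expressing libraries alone and -0.44 with the covariate. Sp7 (ENSMUSG00000060284.7, chromosome 15, 102356606 to 102367182) measured 0.868, 0.922 and 1.05 CPM in the controls, or 65, 67 and 79 counts. In the mutants it stood at 1.29, 1.27 and 1.34 CPM, or 90, 86 and 105 counts, above every control and within 1.06 times of each other. Its log2 fold change was 0.46 (SE 0.18, interval 0.06 to 0.87, adjusted p 0.533 in edgeR's test) and was 0.48 in the Y-expressing libraries alone. There were 0.529, 0.459 and 0.537 Sp7 counts for each Runx2 count over controls 1 to 3, against 1.08, 0.768 and 0.847 over mutants 1 to 3, a mean difference of 0.81 on the log2 scale that is again a description.

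**Figure D3:**
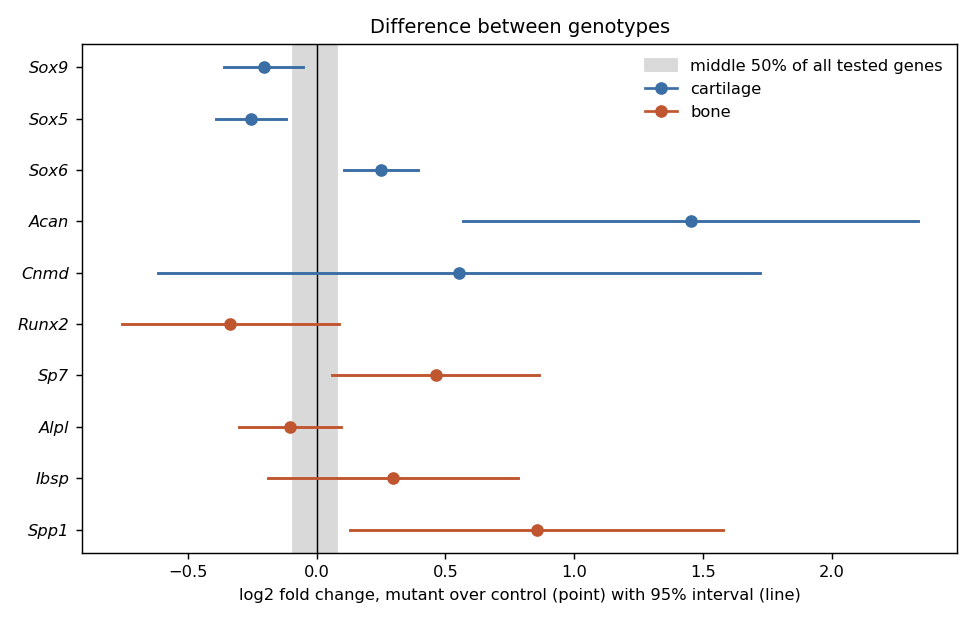
Log2 fold change of mutants over controls for each gene (x axis), as a point with its 95% interval from edgeR's fit, in blue for cartilage and orange for bone, with the middle 50% of all tested genes (-0.09 to 0.08) shaded. The intervals of Cnmd, Runx2, Alpl and Ibsp span 0, and no gene passed after adjustment over all genes.

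Alpl (ENSMUSG00000028766.10, chromosome 4, 137741733 to 137796384) was the product gene with the highest level and the least different between genotypes. It measured 12.7, 11.99 and 13.4 CPM over controls 1 to 3, against 12.4, 10.8 and 12.2 CPM over mutants 1 to 3, with overlap. The log2 fold change was -0.10 (SE 0.09, adjusted p 0.891 in edgeR's test), and its 95% interval of -0.30 to 0.09 lay within the fold limit on both sides. It was -0.04 in the Y-expressing libraries alone and -0.02 with the covariate. Alpl was also the only gene of the 10 with the AP-2 letters in a window, with 2 matches in capitals at chr4:137796385-137796634 on the minus strand.
Alpl: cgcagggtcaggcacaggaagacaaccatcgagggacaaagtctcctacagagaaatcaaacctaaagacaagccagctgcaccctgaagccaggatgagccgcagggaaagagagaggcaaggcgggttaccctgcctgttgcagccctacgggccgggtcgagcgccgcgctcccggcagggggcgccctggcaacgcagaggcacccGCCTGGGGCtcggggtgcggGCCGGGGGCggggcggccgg
The windows of Runx2 (chr17:44814628-44814877, minus strand) and Spp1 (chr5:104434861-104435110, plus strand) are shown because each holds the RUNX letters, in capitals. Sox6, on the cartilage side, also has windows with the RUNX letters, which are not shown.
Runx2: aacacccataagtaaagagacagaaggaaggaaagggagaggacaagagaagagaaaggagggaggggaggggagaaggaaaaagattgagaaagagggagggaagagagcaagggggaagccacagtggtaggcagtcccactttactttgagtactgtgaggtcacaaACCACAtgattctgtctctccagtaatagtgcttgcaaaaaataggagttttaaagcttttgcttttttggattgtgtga
Spp1: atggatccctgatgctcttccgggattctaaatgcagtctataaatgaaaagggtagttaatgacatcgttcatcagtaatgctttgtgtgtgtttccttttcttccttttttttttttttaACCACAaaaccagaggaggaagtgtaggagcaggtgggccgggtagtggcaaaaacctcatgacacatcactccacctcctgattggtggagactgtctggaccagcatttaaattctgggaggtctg

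Ibsp and Spp1 lie close together on chromosome 5 with the other acidic phosphoprotein genes of bone and tooth, in the order Dspp, Dmp1, Ibsp, Mepe and Spp1. Ibsp (ENSMUSG00000029306.8, 104299171 to 104311469) measured 0.775, 0.729 and 1.01 CPM over controls 1 to 3, against 0.904, 1.095 and 1.09 CPM over mutants 1 to 3. Control 3 exceeded mutant 1, so the groups overlapped (log2 fold change 0.30, SE 0.21, interval -0.19 to 0.78, adjusted p 0.857 in edgeR's test). In the Y-expressing libraries alone it was 0.48 and with the covariate 0.50. Spp1 (ENSMUSG00000029304.14, 104435118 to 104441050) measured 0.441, 0.372 and 0.265 CPM, or 33, 27 and 20 counts, in the controls. In the mutants it stood at 0.459, 0.696 and 0.793 CPM, or 32, 47 and 62 counts. Mutant 1 was barely above control 1, as for Acan, and mutant 3 was the highest. The log2 fold change was 0.86 (SE 0.32, interval 0.13 to 1.58, adjusted p 0.505 in edgeR's test), and 0.79 in the Y-expressing libraries alone. Dmp1, a further gene of this cluster named after its values were seen, had 0, 7 and 4 counts in the controls and 23, 24 and 27 in the mutants, above every control (log2 fold change 2.76, adjusted p 0.203 in edgeR's test, and 1.81 and 0.835 with the covariate). Dspp and Mepe had 0 counts in every library. If 1 count stood for 1 read, this allows a level of up to 0.0384 to 0.0444 CPM, that of 3 counts. The limit is higher if the values were multiplied up.

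Spp1 is also made by macrophages and osteoclasts. Each of the 10 macrophage markers stood higher in the mutant mean, by a median of 0.88 on the log2 scale, and their sum was 28.1, 39.3 and 33.5 CPM over controls 1 to 3, against 50.95, 56.9 and 73.6 CPM over mutants 1 to 3. The sum and Spp1 were both lowest in mutant 1 and highest in mutant 3 among the mutants, but in the controls the macrophage sum was lowest in control 1, where Spp1 was highest. Of these markers C1qb, a complement subunit, rose from a mean of 3.85 to 7.80 CPM (adjusted p 0.0423 in edgeR's test). The 8 osteoclast markers summed to 5.23 to 7.12 CPM, against 4.81 to 9.07 CPM in mutants, with the fusion gene Dcstamp and the proton pump subunit Atp6v0d2 at 0 counts in every library. The part of macrophages in the level of Spp1 was not tested. The 7 endothelial markers summed to 254 to 265 CPM, against 279 to 301 CPM in mutants, the 7 markers of otic, olfactory and lens placodes to 164 to 171 and 183 to 202 CPM, the 10 ectoderm markers to 341 to 362 and 363 to 434 CPM, the 8 head muscle and mesoderm markers to 26.0 to 33.2 and 42.1 to 48.2 CPM, and the 10 crest mesenchyme markers to 1195 to 1222 and 930 to 981 CPM. None of these 5 ranges overlapped between genotypes, nor did those of the macrophage and crest glia markers. Within the last 2 lists the mesoderm factors Tcf15 and Meox2 rose (3.40 to 8.55 CPM and 0.572 to 2.73 CPM, adjusted p 0.0399 and 0.00432 in edgeR's test) and the homeobox genes Alx1 and Alx4 fell (103 to 77.2 CPM and 217 to 136 CPM, adjusted p 0.0108 and 0.00517).

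Some values carry uncertainty from neighbouring annotation, since no strand option is listed for the quantification. Exons of Sox5 are overlapped by Sox5os1 on the opposite strand over 1330 bases (9.25% of its exon length) and those of Runx2 by Runx2os1 over 519 bases (5.87%). Spp1 shares 309 bases (18.8%) with Gm42793 on the same strand. Sox5os1 had 0 counts in every library, Runx2os1 had 8 counts in control 2 and 0 elsewhere, and Gm42793 had 1 count in each of mutants 1 and 2 and 0 elsewhere.

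Other genes of cartilage and bone formation were taken from 6 lists of 106 genes, of which 93 were tested. A single gene passed, the homeobox gene Barx1 of jaw and tooth mesenchyme, which fell from 32.8 ± 2.33 CPM in controls to 21.6 ± 2.45 CPM in mutants (SD over 3 libraries each, log2 fold change -0.60, adjusted p 0.0449 in edgeR's test). It no longer passed when any 1 of the 6 libraries was left out (adjusted p 0.0584 to 0.165), nor with the Y-linked covariate (0.122) or in the Y-expressing libraries alone (0.185). The log2 fold change in these fits was -0.69 to -0.53, -0.70 and -0.72. At an unadjusted p under 0.05 there were 20 of the 93, 11 higher and 9 lower (all tested genes: 7.95%), and the median log2 fold change was -0.02.

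The cartilage matrix list, many of whose genes are targets of the SOX factors, held 14 tested genes of 19, of which 0 passed. It had 3 higher and 2 lower at an unadjusted p under 0.05 and a median log2 fold change of 0.22. Col2a1, the main collagen of cartilage, measured 457 ± 56.1 CPM in controls, against 444 ± 44.9 CPM in mutants. Col11a1, a chain of the fibril that copolymerises with it, stood at 68.9 ± 6.91 and 86.1 ± 5.99 CPM, with no overlap (log2 fold change 0.32, adjusted p 0.210 in edgeR's test, and 0.21 with the covariate). Hapln1, the link protein that binds aggrecan to hyaluronan, stood at 36.2 ± 5.83 and 24.1 ± 2.20 CPM, also with no overlap and opposite in direction to Acan (log2 fold change -0.59, adjusted p 0.115 in edgeR's test). DESeq2's test called Hapln1 at an adjusted p of 0.000185. With the covariate its log2 fold change was -0.52 (adjusted p 0.575 in edgeR's test), and in the Y-expressing libraries alone -0.53. Among 12 tested cartilage transcription factors and cofactors of 13, which included Barx1, the most abundant were Zfp219, a cofactor of SOX9, at 165 ± 9.32 and 162 ± 3.73 CPM, and the ubiquitin ligase Wwp2 at 81.7 ± 3.18 and 80.5 ± 2.68 CPM.

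The bone transcription factor list had 13 tested genes, 0 called, and 1, lower, at an unadjusted p under 0.05. That gene was the homeobox factor Dlx5, at 14.3 ± 1.47 and 11.7 ± 1.32 CPM (log2 fold change -0.28, adjusted p 0.550 in edgeR's test, and -0.10 with the covariate). Atf4, a stress-response factor of osteoblasts, stood at 187 ± 7.43 and 202 ± 13.5 CPM, and the zinc finger gene Zfp521, which restrains RUNX2, at 115 ± 3.83 and 112 ± 4.63 CPM. The bone matrix and mineralisation list had 16 tested of 22, 0 called, and 4 higher and 1 lower at an unadjusted p under 0.05. Postn, which encodes the matricellular protein periostin, stood at 31.3 ± 6.12 and 61.1 ± 9.31 CPM (log2 fold change 0.96, adjusted p 0.0914 in edgeR's test). DESeq2's test called Postn at an adjusted p of 6.88e-09. In edgeR's test its adjusted p was 0.0244 without control 2 and 0.141 to 0.354 without each of the other libraries. With the covariate its log2 fold change was 0.69 (adjusted p 0.352) and in the Y-expressing libraries alone 0.67 (0.367). The collagen gene Col1a2 stood at 310 ± 28.6 and 192 ± 41.6 CPM (log2 fold change -0.69, adjusted p 0.262 in edgeR's test). With the covariate its log2 fold change was -0.74 (adjusted p 0.690 in edgeR's test), and in the Y-expressing libraries alone -0.76. Sparc, or osteonectin, stood at 164 ± 13.3 and 188 ± 19.2 CPM (log2 fold change 0.19, and 0.08 with the covariate). The study listed Postn among its upregulated genes from these samples, so its direction is not independent evidence.

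Of 17 tested brakes on cartilage or bone formation 0 passed and 1, higher, had an unadjusted p under 0.05. It was Id1, an inhibitor of bHLH factors, at 51.7 ± 6.07 and 63.8 ± 5.598 CPM (log2 fold change 0.30, adjusted p 0.351 in edgeR's test, and 0.12 with the covariate), and its relatives Id3 and Id2 stood at 155 ± 7.12 and 171 ± 15.5 CPM and at 96.0 ± 13.7 and 110 ± 8.89 CPM. All 21 signals and receptors were tested, 0 passed, and 2 higher and 3 lower had an unadjusted p under 0.05. The ligand Bmp7 stood at 56.0 ± 0.707 and 49.0 ± 2.30 CPM (adjusted p 0.264 in edgeR's test), and the receptors Fgfr1 and Bmpr1a at 226 ± 9.56 and 217 ± 6.27 CPM and at 171 ± 7.82 and 166 ± 5.51 CPM.

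**Figure D4:**
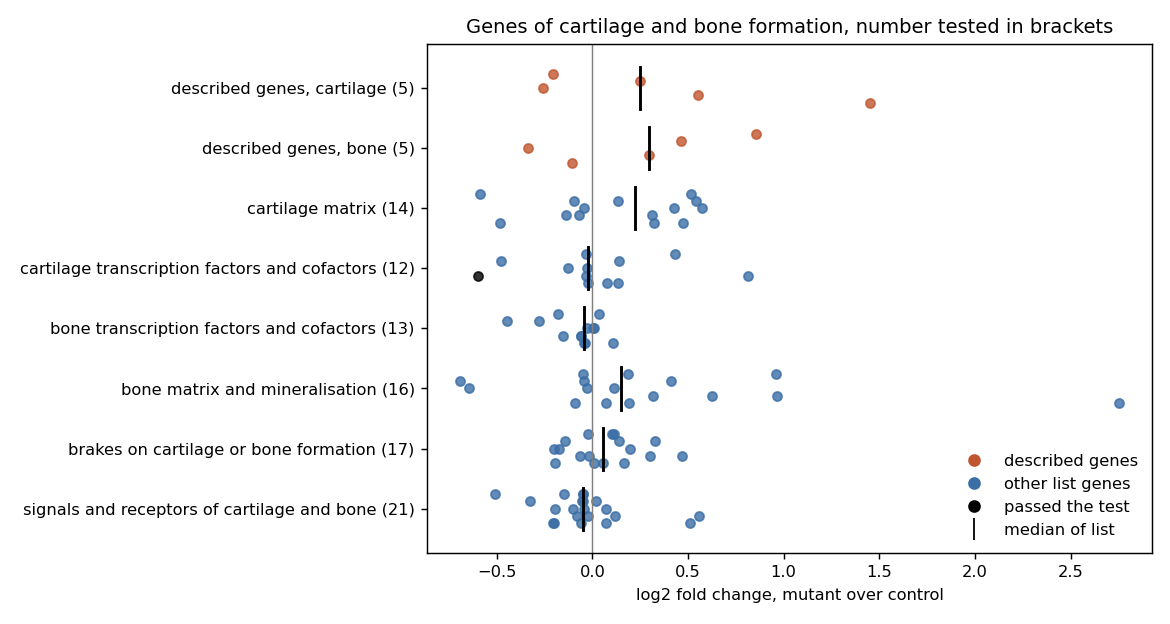
Log2 fold change of mutants over controls (x axis) for every tested gene of the lists, 1 point a gene, with the list's median as a vertical bar and the number tested in brackets. The described genes are in orange, Barx1 is the only point that passed, and the median is 0.25 for the 5 cartilage genes, 0.30 for the 5 bone genes and between -0.05 and 0.22 for the other 6 lists.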

How the data were processed

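Poly(A) RNA of the dissected prominences was made into stranded libraries, and 150 bases were read from 1 end. The authors mapped reads to mm10 with STAR and quantified a reference annotation with StringTie. Its prepDE script then gave the deposited estimated counts, which it derives from transcript coverage and an assumed read length. The values are already whole, and in every library fewer genes had the value 3 than 2 or 4, as when a smaller number of reads is multiplied up, so tests were repeated on counts divided by 2. For the tool versions, annotation release and assumed read length, the sources used here give nothing. The authors' own fold changes and p-values in this table, and a second table of kallisto and sleuth results without values per sample, were not used.

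Groups came from the sample titles. Genotypes were compared in R 4.3.3 with edgeR 4.0.16 (filterByExpr, TMM factors 0.992 to 1.01, robust quasi-likelihood F test, no covariate), tested on simulated data first. The SE is the absolute log2 fold change divided by the square root of F. CPM uses the TMM-scaled total count. limma 3.58.1, DESeq2 1.42.0, other scaling and filters, leaving out each library, the replicate number as a block, and the Y-linked covariate were alternatives. The DESeq2 test was the study's own first route and is here an alternative because the quasi-likelihood test allows for uncertain dispersion at n = 3. Exon lengths and positions came from GENCODE mouse release M21 (mm10), which matched all 10 genes and 55141 of the 55401 table entries without version numbers. Intervals cover the spread between libraries, and no molecular identifiers are described for the reads, so counts may repeat a molecule. The smallest chi-square per gene between any of the 15 pairs of libraries was 17.5, and every pair differed by more than sampling noise.

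The 10 genes and all lists were chosen with earlier results of these data known. Of each list of other genes the text names every gene that passed, the 2 with the highest mean CPM and the 1 with the smallest p. Where a symbol had several entries, the one with the highest mean count was used. The sum over 4 of the crest glia markers was chosen after seeing the data, and the remaining markers of that list are not reported here.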

Additional observations from a re-analysis of the deposited data

How the results depend on the processing

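None of the 10 genes was called in any of the 17 alternatives, although at this depth Acan, Cnmd and Spp1 did not reach the stricter count filter and have 16 values each. Their direction was kept in 165 of 167 values. The exceptions were both for Cnmd, at -0.21 with the Y-linked covariate and -0.22 in the Y-expressing libraries alone. The number of all genes called was 64. It was 282 with DESeq2's Wald test, 34 with the Y-linked covariate and 33 in the Y-expressing libraries alone, and 23 to 63 with 1 library left out (41 without control 1, 25 without control 3, 23 without mutant 2, 26 without mutant 3). Without control 2 it was 63 and without mutant 1 it was 48.

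With the replicate number as a block 119 genes were called and none of the 10. Whether the numbers pair littermates is not stated. Same-numbered libraries deviated together with r of 0.083, 0.123 and 0.20 across genes, and every library correlated best with its own number. Cnmd, Runx2, Alpl and Ibsp, which overlapped between the groups, each went the same way in every same-numbered pair. The share of all tested genes that did so was not counted, so this is a description and not evidence of a difference. With the block the log2 fold change of Cnmd was 0.57 (SE 0.27, adjusted p 0.503, edgeR), against an SE of 0.51 without it. Among the other named genes the block moved Hapln1 (adjusted p 0.0473) and Col1a2 (0.0335) past the threshold, as did DESeq2 for both and for Postn (6.88e-09). Directions that turned were those of genes with small differences. Col2a1 was 0.038 with the covariate and 0.019 in the Y-expressing libraries alone, and ranged from -0.112 to 0.055 with 1 library left out (0.055 without control 3 and 0.039 without mutant 1). Zfp219 was 0.015 with the covariate and ranged from -0.066 to 0.005 (without control 3), Zfp521 ranged from -0.063 to 0.003 (without mutant 3), and Id2 was -0.02 with the covariate and -0.032 in the Y-expressing libraries alone. Barx1 did not pass without robust estimation (0.0654). The cause was not tested in any of these. The low counts of Acan, Cnmd, Sp7, Ibsp and Spp1, 20 to 117 in a library, limit how small a difference can be seen.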
